A study of Mus musculus with 93 samples.

Results

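The genes described here are 40 interferon-stimulated genes, chosen by symbol as the classical transcriptional targets of interferon signaling, and followed in white blood cells of mice with and without mammary tumors. Of the 40, 38 were measured by a probe set annotated to that symbol alone, out of 18193 genes measured in this way on the array. Isg15, the ubiquitin-like modifier, was read by a probe set that the annotation shares with another symbol, and Ifi44 had no probe set under that symbol, so neither was analysed here. Each measured gene was read by its brightest probe set over all 93 arrays.

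All animals were female FVB/NJ mice, and the tissue was total white blood cells (peripheral blood cells, PBCs) taken from the facial vein after red cells had been lysed. The 28 control arrays came from wild type, tumor-free mice of matching age and parity. The 65 tumor arrays came from MMTV/c-MYC transgenic mice with advanced mammary tumors, in which the MMTV long terminal repeat drives the c-MYC oncogene in mammary epithelium. According to the study's methods some of these mice carried a more stable point-mutant form of c-MYC, without a key to which array carried which form. Blood was drawn about monthly and before the mice were killed, at an average age of 431 days. The labels divide the arrays into a training and a validation cohort and number them within each. The late-numbered tumor arrays (training 6 to 32 and validation 9 to 33) numbered 52, and the early-numbered ones (training 1 to 5 and validation 1 to 8) numbered 13. The numbers are names only, and nothing in the labels says what distinguishes low from high numbers. The labels do not say whether any arrays share an animal, so p-values measure the spread between these arrays.

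Interferons are secreted proteins by which cells announce infection. Type I interferons bind the receptor pair IFNAR1 and IFNAR2, whose kinases JAK1 and TYK2 activate transcription factors, among them STAT2, which joins IRF9 in a complex that binds interferon-stimulated response elements in target promoters. The targets include sensors of viral RNA, enzymes that degrade or edit it, proteins that block translation or budding of viruses, and IRF7, the transcription factor that amplifies interferon production. Most of them are expressed at a low level in resting leukocytes and rise together when interferon is present, which is why their joint level is used as a reading of interferon exposure in blood.

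The response element was searched for in the promoters of the genes, taken from RefSeq (GRCm38.p6) as the window from 250 bases before to 50 after the transcript start. Of the 40 genes, 30 had a window, and 16 of these (53.3%) held the core GAAANNGAAA on either strand (TTTCNNTTTC on the other strand; overlapping matches were counted separately), against 3.99% of 27025 genes with a window. Among the measured genes with a window, the core was found in 5 of 10 that were higher in late-numbered tumor arrays than in control arrays, in 2 of 4 that were lower and in 8 of 14 that were not called, in a comparison that called 25.6% of all genes higher and 20.5% lower. The stretches printed here were chosen to show the element in genes that moved differently in these data. Oas1a (chr5:120907526-120907565, minus strand), Bst2 (chr8:71537567-71537622, minus strand) and Ddx60 (chr8:61928014-61928086, plus strand) were higher in late-numbered tumor arrays, Oas3 (chr5:120777705-120777754, minus strand) was lower, and Ifit3 (chr19:34583353-34583436, plus strand) was not called. Each is written 5′ to 3′ in the direction of transcription and lies before the transcript start, with the matches in capitals.
Oas1a: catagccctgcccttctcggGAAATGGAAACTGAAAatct
Bst2: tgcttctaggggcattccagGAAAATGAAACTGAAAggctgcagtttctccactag
Ddx60: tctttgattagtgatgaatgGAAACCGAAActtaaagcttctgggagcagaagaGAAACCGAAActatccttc
Oas3: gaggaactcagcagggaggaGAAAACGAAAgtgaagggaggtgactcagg
Ifit3: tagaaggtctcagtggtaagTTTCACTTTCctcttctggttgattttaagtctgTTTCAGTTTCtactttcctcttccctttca
In Oas1a and Bst2 a pair of matches overlaps in one run, in Ddx60 and Ifit3 the pair is separated, and Oas3 holds a single match. The matches in Ifit3 lie on the opposite strand. A match describes these letters only and is not evidence of binding.

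In late-numbered tumor arrays 16 of the 38 genes were higher than in control arrays and 4 were lower, and the other 18 were not called. The test was limma with a cohort term, two-sided, at an adjusted p under 0.05 over all probe sets. Over all genes, 25.6% were called higher and 20.5% lower in this comparison. The median difference of the 38 genes was 0.17 on the log2 scale, beside 0.04 for all genes, and single genes ran from -1.28 (Oas3) to 1.65 (Oasl2). In early-numbered tumor arrays 3 of the 38 were higher and 17 lower than in the same control arrays, beside 34.3% and 29% of all genes, and the median difference was -0.34, beside 0.07 for all genes. Both comparisons use the same 28 control arrays and are therefore not independent of each other. Compared directly, the late-numbered arrays were above the early-numbered ones for 25 of the 38 genes and below them for 5, beside 31.5% and 38.3% of all genes, with a median difference of 0.54 against -0.08 for all genes.

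**Figure D1:**
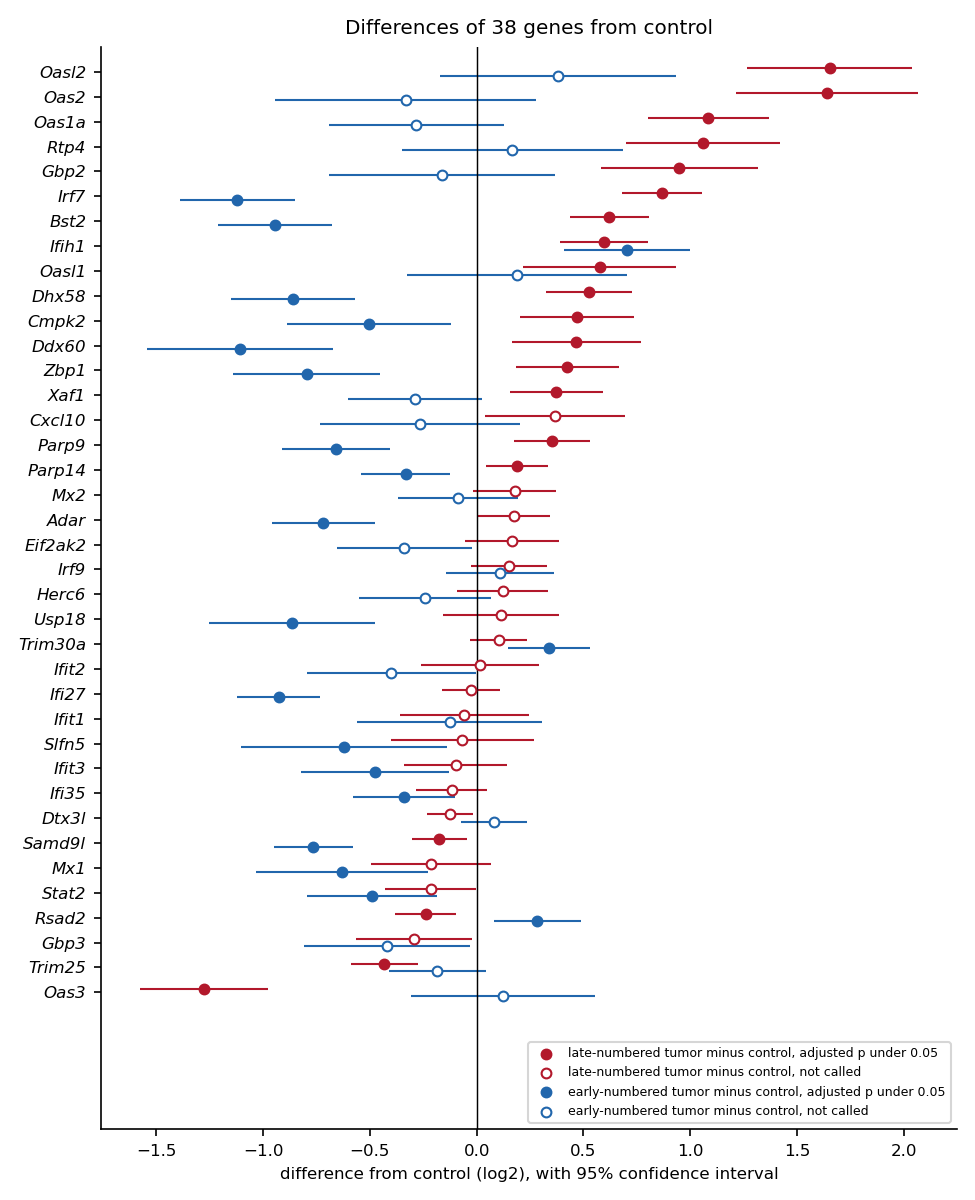
Difference from control of each of the 38 genes on the log2 scale (x axis), with 95% confidence intervals, in late-numbered (red) and early-numbered (blue) tumor arrays; filled points had an adjusted p under 0.05. Oasl2, Oas2 and Oas1a lead in late-numbered arrays, Oas3 lies at the bottom at -1.28, and most early-numbered differences lie below 0.

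Technical readings moved with the array sets. The dap spike-in, a bacterial transcript added to the sample, had a mean log2 signal of 2.22 in control arrays, 8.56 in late-numbered and 2.7 in early-numbered tumor arrays, and all 52 late-numbered arrays lay above the highest control. Late-numbered tumor and spike-in level cannot be told apart. The 5′ minus 3′ difference of the actin control, a reading of RNA integrity, was -0.64 in control, -0.54 in late-numbered and -1.42 in early-numbered arrays, and all 13 early-numbered arrays lay below the lowest control, as did 2 of 52 late-numbered ones. Early-numbered tumor and the actin reading cannot be told apart either. Within the late-numbered set, training array 22 had the lowest actin reading (-2.30), training array 27 the other low one (-1.10), and validation array 19 the lowest platelet and monocyte marker levels. Without these 3 arrays, 18 of the 38 genes were higher and 4 lower than in control. Of the early-numbered arrays, validation 2, training 4 and validation 6 had the lowest correlation with all other arrays, and without them 3 genes were higher and 13 lower than in control.

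Leukocyte markers moved as well. The shared leukocyte markers (5 of 5 measured) averaged 12.8 (range 12.7 to 12.9) in control, 12.9 (12.6 to 13.2) in late-numbered and 12.8 (12.5 to 13.1) in early-numbered tumor arrays. The neutrophil markers (8 of 10 measured) averaged 11.6 (range 10.5 to 12.2) in control, 12.2 (11.3 to 13.1) in late-numbered and 11.4 (10.3 to 12.8) in early-numbered tumor arrays, and the monocyte markers (9 of 10 measured) 10.4 (range 9.65 to 10.9) in control, 10.8 (8.66 to 11.3) in late-numbered and 10.3 (9.09 to 10.8) in early-numbered tumor arrays. B cell markers (9 of 10 measured) averaged 9.27 (range 8.27 to 9.99) in control, 8.38 (6.24 to 9.7) in late-numbered and 8.12 (6.77 to 9.19) in early-numbered tumor arrays, and T cell markers (9 of 10 measured) 10.3 (range 9.41 to 11) in control, 9.84 (8.64 to 11.4) in late-numbered and 9.34 (8.54 to 9.94) in early-numbered tumor arrays. Markers of plasmacytoid dendritic cells, the professional producers of type I interferon (8 of 8 measured), averaged 6.93 (range 6.56 to 7.26) in control, 6.67 (5.8 to 7.32) in late-numbered and 6.44 (5.75 to 7.26) in early-numbered tumor arrays. These 8 markers went both ways. In late-numbered arrays 1 was higher and 3 were lower (25.6% and 20.5% of all genes), with a median difference of -0.21. In early-numbered arrays 2 were higher and 3 lower (34.3% and 29% of all genes), with a median difference of -0.08. RMA values have no zero (the lowest in the table was 1.23), so no marker is listed as absent. Among the mammary epithelial markers, 4 of 10 were higher and none lower in late-numbered arrays, where 25.6% of all genes were higher and 20.5% lower, and 3 of 10 were higher and 1 was lower in early-numbered arrays, where 34.3% and 29% were. With the B cell, T cell, neutrophil and monocyte levels as covariates, 6 of the 16 genes that were higher in late-numbered arrays kept the call (Irf7, Oas1a, Oas2, Oasl2, Bst2 and Xaf1), and Trim25, Oas3 and Rsad2 kept theirs of the 4 that were lower. With the first 3 principal components of the control probe sets as covariates, 4 of the 16 kept the call (Dhx58, Bst2, Xaf1 and Parp9) and none of the 4 lower genes did. Ifit1, Ifit2 and Ifit3 were called lower in that fit. These components include the spike-in probe sets, by which late-numbered and control arrays separate. For late-numbered arrays, a call lost or gained in that fit, here or below, therefore cannot tell a change in a gene from the spike-in difference. In whole blood cells, fewer cells of a type and less RNA per cell cannot be told apart.

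In late-numbered tumor arrays the role group with the largest median difference from control (1.08) was that of the oligoadenylate synthetases, enzymes that sense double-stranded RNA and activate the RNA-degrading enzyme RNase L, and their relatives. Of the 5 measured, 4 were higher and 1 was lower, beside 25.6% and 20.5% of all genes. None was called in early-numbered arrays, beside 34.3% of all genes higher and 29% lower. The early-numbered differences of the 5 ran from -0.33 to 0.38 (median 0.12). Oasl2, an oligoadenylate synthetase-like protein, ranged from 7.29 to 10.20 (median 8.42) in the control arrays, from 5.82 to 11.50 (median 10.25) in the late-numbered and from 7.26 to 10.10 (median 9.16) in the early-numbered tumor arrays, with SDs of 0.70, 0.91 and 0.90. All but 1 of the late-numbered arrays lay above the control mean and 26 of 52 above the highest control. Its late-numbered minus control difference was 1.65 ± 0.19 (adjusted p = 4.42e-12), a 3.15-fold increase, and the early-numbered difference was 0.38 ± 0.28 (adjusted p = 0.228).

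Oas2 ranged from 4.92 to 8.48 (median 6.80) in the control arrays, from 4.95 to 10.10 (median 8.44) in the late-numbered and from 4.74 to 7.36 (median 6.46) in the early-numbered tumor arrays, with SDs of 0.80, 1.02 and 0.86. The late-numbered set stretched upward, with 25 of 52 arrays above the highest control, while its lower end stayed within the control range. The difference was 1.64 ± 0.21 (adjusted p = 2.01e-10) in late-numbered and -0.33 ± 0.31 (adjusted p = 0.345) in early-numbered arrays. Oas1a ranged from 7.19 to 9.70 (median 8.60) in the control arrays, from 8.12 to 11.10 (median 9.77) in the late-numbered and from 7.0 to 9.05 (median 8.34) in the early-numbered tumor arrays, with SDs of 0.60, 0.63 and 0.67. Above the highest control were 27 of 52 late-numbered arrays, and the difference was 1.08 ± 0.14 (adjusted p = 2.96e-10), against -0.28 ± 0.21 (adjusted p = 0.227) in early-numbered arrays. Oasl1 differed by 0.58 ± 0.18 (adjusted p = 0.00568) in late-numbered arrays, with 2 of 52 above the highest control. None of these 4 kept its late-numbered call with the principal components of the control probe sets as covariates, where the differences were 0.56 (adjusted p = 0.64) for Oasl2, 1.27 (adjusted p = 0.296) for Oas2, 0.89 (adjusted p = 0.265) for Oas1a and 0.15 (adjusted p = 0.912) for Oasl1.

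Oas3, the longest enzyme of the family, went the other way. It ranged from 8.89 to 11.70 (median 10.20) in the control arrays, from 7.51 to 10.10 (median 8.99) in the late-numbered and from 9.24 to 11 (median 10.40) in the early-numbered tumor arrays, with SDs of 0.74, 0.65 and 0.47. None of the 52 late-numbered arrays lay above the control mean and 22 lay below the lowest control, whereas the early-numbered arrays overlapped the controls. The difference was -1.28 ± 0.15 (adjusted p = 5.18e-12) in late-numbered and 0.12 ± 0.22 (adjusted p = 0.629) in early-numbered arrays. With the principal components as covariates the late-numbered difference was -0.53 (adjusted p = 0.558), which was not called. Within the control arrays Oas3 nevertheless varied with the other genes (Pearson r = 0.71 with their mean, n = 28), and it did so within the late-numbered arrays too (r = 0.57, n = 52). Oas3 was read by 1 probe set, so no other reading of it was had here.

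**Figure D2:**
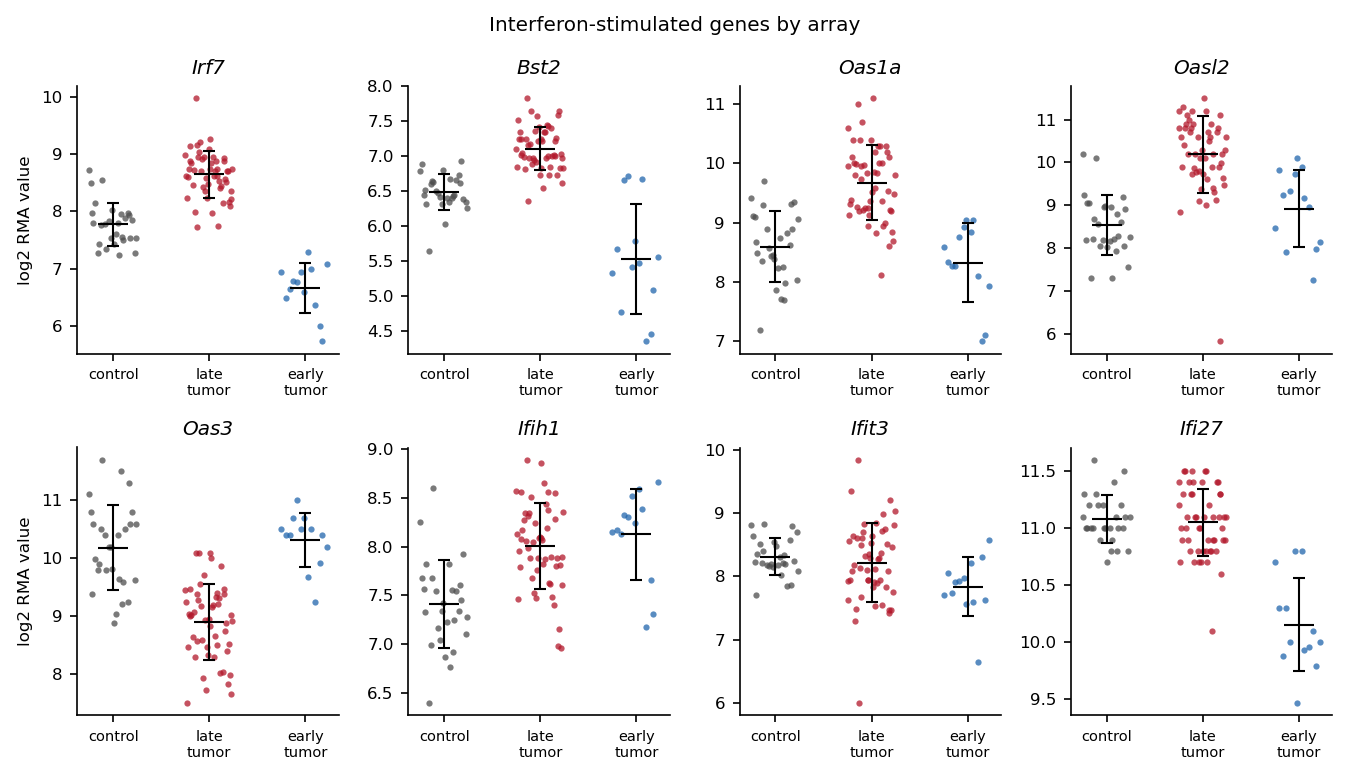
Log2 RMA values (y axis) of 8 of the genes in each control (grey), late-numbered tumor (red) and early-numbered tumor (blue) array; bars give the mean and SD of each set. Irf7 and Bst2 are shifted up in late-numbered and down in early-numbered arrays, Oas1a and Oasl2 up in late-numbered arrays, Oas3 down in late-numbered arrays, Ifih1 up in both tumor sets and Ifi27 down in early-numbered arrays, while Ifit3 spreads to both sides in late-numbered arrays.

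Among the transcription factors, Irf7 was higher in late-numbered and lower in early-numbered tumor arrays. It ranged from 7.24 to 8.72 (median 7.79) in the control arrays, from 7.73 to 9.98 (median 8.70) in the late-numbered and from 5.73 to 7.29 (median 6.76) in the early-numbered tumor arrays, with SDs of 0.38, 0.41 and 0.44. Of the late-numbered arrays 50 of 52 lay above the control mean and 22 above the highest control, while 12 of 13 early-numbered arrays lay below the lowest control, so that the late-numbered and early-numbered arrays did not overlap. The difference from control was 0.87 ± 0.09 (adjusted p = 2.14e-13) in late-numbered and -1.12 ± 0.14 (adjusted p = 2.21e-11) in early-numbered arrays, and the direct difference between the tumor sets was 1.99 ± 0.13 (adjusted p = 1.86e-26), the largest of the 38 genes. With the principal components as covariates the late-numbered difference was 0.79 (adjusted p = 0.119), which was not called.

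The partners of the signaling complex itself moved less. Irf9, its DNA-binding subunit, ranged from 8.72 to 10.30 (median 9.38) in the control arrays, from 8.83 to 10.40 (median 9.57) in the late-numbered and from 8.80 to 10 (median 9.72) in the early-numbered tumor arrays, with SDs of 0.38, 0.37 and 0.43. The sets overlapped almost fully, and the differences were 0.15 ± 0.09 (adjusted p = 0.166) and 0.11 ± 0.13 (adjusted p = 0.465). Stat2 differed by -0.22 ± 0.11 (adjusted p = 0.0947) in late-numbered arrays, which was not called, and by -0.49 ± 0.15 (adjusted p = 0.00428) in early-numbered arrays, where it was lower. Its other probe set gave 0.27 ± 0.12 (adjusted p = 0.0522) in late-numbered arrays, the other direction and also not called. In early-numbered arrays that probe set gave -0.70 ± 0.17 (adjusted p = 2.36e-04).

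Of the 6 sensors and RNA-binding effectors, 4 were higher in late-numbered arrays and none lower, beside 25.6% and 20.5% of all genes. In early-numbered arrays 1 was higher and 4 were lower, beside 34.3% and 29% of all genes. Ifih1, which encodes the double-stranded RNA sensor MDA5, was higher in both tumor sets, by 0.60 ± 0.10 (adjusted p = 6.87e-07) in late-numbered and 0.70 ± 0.15 (adjusted p = 3.05e-05) in early-numbered arrays, and the tumor sets differed from each other by -0.11 ± 0.14 (adjusted p = 0.497), with a 95% interval from -0.38 to 0.17. It lay above the control mean in 48 of 52 late-numbered and 11 of 13 early-numbered arrays, yet only 3 and 1 of them exceeded the highest control. Ifih1 lost its late-numbered call with leukocyte levels (0.12, adjusted p = 0.43) and with the principal components (0.36, adjusted p = 0.57) as covariates. The early-numbered call was kept in both fits. With leukocyte levels Ifih1 was called lower in late-numbered than in early-numbered arrays. Dhx58 (LGP2), a relative that tunes MDA5 signaling, differed by 0.53 ± 0.10 (adjusted p = 6.67e-06) in late-numbered and -0.86 ± 0.15 (adjusted p = 3.50e-07) in early-numbered arrays, and 21 of 52 late-numbered arrays lay above the highest control. Of its 2 dimmer probe sets one gave -1.04 ± 0.15 (adjusted p = 8.05e-09) and the other 0.28 ± 0.09 (adjusted p = 0.00351) in early-numbered arrays, the opposite direction, and neither was called in late-numbered arrays. The RNA helicase gene Ddx60 differed by 0.47 ± 0.15 (adjusted p = 0.00821) and -1.11 ± 0.22 (adjusted p = 8.80e-06), and its other probe set gave 0.91 ± 0.14 (adjusted p = 1.93e-08) and 0.03 ± 0.20 (adjusted p = 0.919), so its early-numbered call rested on the probe set used.

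Zbp1, a sensor of Z-form nucleic acid that can start necroptosis, ranged from 7.49 to 9.69 (median 8.33) in the control arrays, from 7.55 to 9.90 (median 8.83) in the late-numbered and from 6.51 to 8.99 (median 7.63) in the early-numbered tumor arrays, with SDs of 0.56, 0.46 and 0.67. The late-numbered arrays stayed almost wholly within the control range (2 of 52 above it) but with a higher centre, and the differences were 0.42 ± 0.12 (adjusted p = 0.00244) and -0.80 ± 0.17 (adjusted p = 5.29e-05). Adar, which edits adenosine to inosine in double-stranded RNA, ranged from 7.35 to 8.21 (median 7.93) in the control arrays, from 7.0 to 9.16 (median 8.13) in the late-numbered and from 6.35 to 8.05 (median 7.35) in the early-numbered tumor arrays, with SDs of 0.19, 0.38 and 0.48. In late-numbered arrays 18 of 52 were above the highest control and 2 below the lowest, and the difference of 0.17 ± 0.08 (adjusted p = 0.0863) was not called, whereas the early-numbered difference was -0.72 ± 0.12 (adjusted p = 3.32e-07). Its other probe sets gave 0.70 ± 0.07 (adjusted p = 3.98e-14) and -0.42 ± 0.11 (adjusted p = 6.56e-04) in late-numbered arrays, opposite in direction. Eif2ak2, the kinase PKR that stops translation, differed by 0.16 ± 0.11 (adjusted p = 0.24) and -0.34 ± 0.16 (adjusted p = 0.0563), neither of which was called, although its other probe sets gave 0.36 ± 0.14 (adjusted p = 0.0287) and 0.98 ± 0.16 (adjusted p = 1.33e-07) in late-numbered arrays.

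The IFIT proteins, which bind foreign RNA ends and block translation, are among the genes most used as a reading of interferon exposure. None of the 3 measured was called in late-numbered arrays, where 25.6% of all genes were higher and 20.5% lower. Ifit3 ranged from 7.71 to 8.82 (median 8.24) in the control arrays, from 6.01 to 9.84 (median 8.23) in the late-numbered and from 6.65 to 8.57 (median 7.92) in the early-numbered tumor arrays, with SDs of 0.29, 0.62 and 0.46. The late-numbered arrays spread to both sides of the controls, with 6 of 52 above the highest and 10 below the lowest. Its differences were -0.10 ± 0.12 (adjusted p = 0.55) in late-numbered and -0.48 ± 0.17 (adjusted p = 0.0138) in early-numbered arrays, and it lost the early-numbered call without the 3 early-numbered arrays named above (-0.33, adjusted p = 0.125). Ifit2 ranged from 9.59 to 11.10 (median 10.20) in the control arrays, from 8.39 to 11.60 (median 10.40) in the late-numbered and from 8.63 to 10.60 (median 9.89) in the early-numbered tumor arrays, with SDs of 0.42, 0.71 and 0.53. Again the late-numbered arrays lay on both sides, 6 above and 8 below the control range, and the differences were 0.02 ± 0.14 (adjusted p = 0.941) and -0.40 ± 0.20 (adjusted p = 0.0728). Ifit1 differed by -0.06 ± 0.15 (adjusted p = 0.797) in late-numbered arrays, with a 95% interval from -0.36 to 0.25.

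Of the 4 interferon-induced GTPases 1 was higher in late-numbered arrays, near the share of all genes (25.6%). Gbp2, a guanylate-binding protein that attacks the membranes around intracellular pathogens, ranged from 8.52 to 12.10 (median 9.13) in the control arrays, from 9.44 to 12 (median 10.50) in the late-numbered and from 7.94 to 10.50 (median 9.58) in the early-numbered tumor arrays, with SDs of 0.97, 0.72 and 0.80. In 48 of 52 late-numbered arrays it was above the control mean, yet none exceeded the highest control, since single control arrays reached 12.10. Its difference was 0.95 ± 0.19 (adjusted p = 8.77e-06) in late-numbered and -0.16 ± 0.27 (adjusted p = 0.605) in early-numbered arrays. Gbp3 ranged from 8.08 to 10.80 (median 9.12) in the control arrays, from 7.93 to 9.84 (median 8.83) in the late-numbered and from 7.49 to 9.80 (median 8.92) in the early-numbered tumor arrays, with SDs of 0.73, 0.51 and 0.60. None of the late-numbered arrays was above the highest control, and the differences were -0.29 ± 0.14 (adjusted p = 0.0725) and -0.42 ± 0.20 (adjusted p = 0.0548). The dynamin-like antiviral GTPases Mx1 and Mx2 were not called in late-numbered arrays (-0.21 ± 0.14 (adjusted p = 0.23) and 0.18 ± 0.10 (adjusted p = 0.14)), and Mx1 was lower in early-numbered arrays (-0.63 ± 0.20 (adjusted p = 0.00543)).

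Of the 4 measured genes of the ISG15 system and the TRIM proteins, none was higher and 1 was lower in late-numbered arrays. Of all genes 25.6% were higher and 20.5% lower there. Usp18, which removes ISG15 from proteins and restrains the receptor, differed by 0.11 ± 0.14 (adjusted p = 0.537) in late-numbered and -0.86 ± 0.20 (adjusted p = 9.83e-05) in early-numbered arrays, where all 13 values lay below the control mean. Herc6, the mouse ligase for ISG15, differed by 0.12 ± 0.11 (adjusted p = 0.384) and -0.24 ± 0.15 (adjusted p = 0.165). Trim25, a ubiquitin ligase that activates RIG-I, ranged from 10.80 to 11.80 (median 11.30) in the control arrays, from 9.92 to 11.50 (median 10.90) in the late-numbered and from 10.70 to 11.60 (median 11.10) in the early-numbered tumor arrays, with SDs of 0.23, 0.40 and 0.31. Its late-numbered arrays reached below the controls (23 of 52 below the lowest), and the difference was -0.43 ± 0.08 (adjusted p = 2.73e-06), against -0.18 ± 0.11 (adjusted p = 0.152) in early-numbered arrays. A second Trim25 probe set gave -0.32 ± 0.09 (adjusted p = 0.00148) and another 0.91 ± 0.12 (adjusted p = 2.37e-10), so the direction for this gene depended on the probe set. Trim30a, a mouse TRIM protein, ranged from 11.30 to 12.30 (median 11.70) in the control arrays, from 11.30 to 12.40 (median 11.80) in the late-numbered and from 11.50 to 12.80 (median 12.10) in the early-numbered tumor arrays, with SDs of 0.21, 0.30 and 0.40. The sets overlapped, the differences were 0.10 ± 0.07 (adjusted p = 0.219) and 0.34 ± 0.10 (adjusted p = 0.00173), and its other probe set gave 1.34 ± 0.14 (adjusted p = 5.80e-14) and 0.92 ± 0.20 (adjusted p = 6.76e-05).

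Of the 10 other antiviral and interferon-induced genes 4 were higher and 2 were lower in late-numbered arrays, beside 25.6% and 20.5% of all genes. In early-numbered arrays 1 of the 10 was higher and 6 were lower, beside 34.3% and 29% of all genes. Bst2 (tetherin, which holds budding virus at the cell surface) had the most late-numbered arrays above the highest control, 38 of 52. It ranged from 5.65 to 6.93 (median 6.46) in the control arrays, from 6.36 to 7.83 (median 7.04) in the late-numbered and from 4.35 to 6.71 (median 5.47) in the early-numbered tumor arrays. The differences were 0.62 ± 0.09 (adjusted p = 1.63e-08) and -0.95 ± 0.13 (adjusted p = 3.54e-09), and 8 of 13 early-numbered arrays lay below the lowest control. Bst2 was the only one of the 16 higher genes that kept its call under all 12 other settings of the fit (changes of probe set rule, filter, scaling, cohort, controls and covariates). It was read by 1 probe set, so the change of probe set rule gave no other reading of it. Rtp4, an interferon-induced chaperone, differed by 1.06 ± 0.18 (adjusted p = 5.10e-07) in late-numbered and 0.17 ± 0.26 (adjusted p = 0.587) in early-numbered arrays. Cmpk2, a mitochondrial nucleotide kinase, differed by 0.47 ± 0.13 (adjusted p = 0.00232) and -0.50 ± 0.19 (adjusted p = 0.0189), and Xaf1, a pro-apoptotic interferon target, by 0.37 ± 0.11 (adjusted p = 0.00334) and -0.29 ± 0.16 (adjusted p = 0.104).

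Rsad2 (viperin), which makes a chain-terminating nucleotide, ranged from 12.70 to 14 (median 13.60) in the control arrays, from 12 to 13.80 (median 13.40) in the late-numbered and from 12.90 to 14 (median 13.90) in the early-numbered tumor arrays, with SDs of 0.27, 0.34 and 0.29. It was lower in late-numbered (-0.24 ± 0.07 (adjusted p = 0.00404)) and higher in early-numbered arrays (0.28 ± 0.10 (adjusted p = 0.0135)), and each call was kept in 7 of 12 other settings. Its other probe sets gave 0.56 ± 0.26 (adjusted p = 0.0702) and -0.19 ± 0.09 (adjusted p = 0.0951) in late-numbered arrays, neither called. In early-numbered arrays they gave 0.65 ± 0.37 (adjusted p = 0.117) and 0.40 ± 0.13 (adjusted p = 0.00695). All 3 of its probe sets were unrelated to the other genes within the control arrays (r from -0.13 to -0.11, n = 28). Samd9l, an interferon-induced inhibitor of translation, ranged from 10.90 to 11.60 (median 11.20) in the control arrays, from 10.20 to 11.70 (median 11.10) in the late-numbered and from 9.64 to 10.90 (median 10.50) in the early-numbered tumor arrays, with SDs of 0.17, 0.30 and 0.34. Its late-numbered shift was small (-0.18 ± 0.07 (adjusted p = 0.0208)) beside the early-numbered one (-0.76 ± 0.09 (adjusted p = 2.87e-11)), where 12 of 13 arrays lay below the lowest control. Ifi27, a mitochondrial and nuclear-envelope protein, showed a like separation, at -0.93 ± 0.10 (adjusted p = 1.12e-13) in early-numbered arrays with 10 of 13 below the lowest control, against -0.03 ± 0.07 (adjusted p = 0.796) in late-numbered arrays. Slfn5 and Ifi35 were lower in early-numbered arrays (-0.62 ± 0.24 (adjusted p = 0.0213) and -0.34 ± 0.12 (adjusted p = 0.011)) and not called in late-numbered ones. The chemokine Cxcl10, which draws T cells to sites of interferon release, differed by 0.37 ± 0.16 (adjusted p = 0.0612) and -0.27 ± 0.24 (adjusted p = 0.326), neither of which was called.

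Of the 3 genes of the PARP9 complex and its relatives 2 were higher in late-numbered arrays, beside 25.6% of all genes. Parp9, the partner of the ubiquitin ligase DTX3L, differed by 0.35 ± 0.09 (adjusted p = 5.83e-04) in late-numbered and -0.66 ± 0.13 (adjusted p = 6.94e-06) in early-numbered arrays. Parp14 ranged from 9.52 to 10.80 (median 10) in the control arrays, from 9.38 to 10.90 (median 10.30) in the late-numbered and from 9.13 to 10.20 (median 9.79) in the early-numbered tumor arrays, with SDs of 0.28, 0.33 and 0.29. The late-numbered arrays overlapped the controls almost fully, the differences were 0.19 ± 0.07 (adjusted p = 0.029) and -0.33 ± 0.11 (adjusted p = 0.00455), and its other probe set gave -0.48 ± 0.10 (adjusted p = 2.89e-05) in late-numbered arrays, the opposite direction. Dtx3l itself ranged from 11 to 11.90 (median 11.40) in the control arrays, from 10.80 to 11.90 (median 11.25) in the late-numbered and from 11 to 11.80 (median 11.50) in the early-numbered tumor arrays, with SDs of 0.22, 0.23 and 0.21. Its differences were -0.12 ± 0.05 (adjusted p = 0.0547) and 0.08 ± 0.08 (adjusted p = 0.369), neither called. Over the 38 genes, 19 were read by a single probe set, and the other 19 had 28 further probe sets between them. A further probe set was called in the opposite direction in late-numbered arrays for Adar, Herc6, Trim25, Slfn5, Ifi35, Ifi27 and Parp14, and in early-numbered arrays for Dhx58. A further probe set was not called where the one used was for Dhx58, Zbp1 and Rsad2 in late-numbered arrays and for Ddx60, Adar, Rsad2, Cmpk2, Slfn5, Ifi35 and Parp14 in early-numbered arrays.

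Whether the difference was shared by the tumor arrays or held by a few was examined array by array. For each array the deviation of each gene from its control mean was averaged over the 38 genes. Control arrays had an SD of 0.36 in this mean and ran from -0.74 to 0.86. Late-numbered tumor arrays averaged 0.26 ± 0.32 (SD, n = 52), with a median of 0.25, and ran from -0.48 (validation 19) to 1.13 (training 29). Of them 44 of 52 lay above 0, as did 15 of 28 control arrays. Only 1 of 52, training 29, exceeded the highest control, since control arrays training 1 (0.86) and validation 2 (0.75) were themselves high. Those 2 control arrays held the highest control value for 16 and 11 of the 38 genes. Above the next control array in order (0.51) lay 10 of 52 late-numbered arrays.

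By the count of genes above their highest control, 49 of 52 late-numbered arrays had at least 1 such gene, 28 had at least 5 and 7 had at least 10, with a median of 5 of 38. This median is 13.2% of the 38 genes, beside a median of 12.7% of all genes above their highest control in the same arrays, and the share of the 38 exceeded that of all genes in 23 of 52 arrays. These counts therefore do not set the 38 genes apart from other genes. Training 29 had 21 (55.3%, beside 20.4% of all genes), and the next highest array had 12 (31.6%, beside 17.3%). Below the lowest control lay a median of 5.26% of the 38 genes and 10.3% of all genes. Leaving out any single array, training 29 included, gave between 15 and 17 genes higher than control and between 4 and 7 lower. The count of lower genes reached 7 without control array training 11, the control with the lowest mean. That array also held the lowest control value for 17 of the 38 genes. By the mean over the 38 genes, most late-numbered arrays lay somewhat above the control mean. Training 29 was the highest at 1.13, followed by validation 33 at 0.84.

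**Figure D3:**
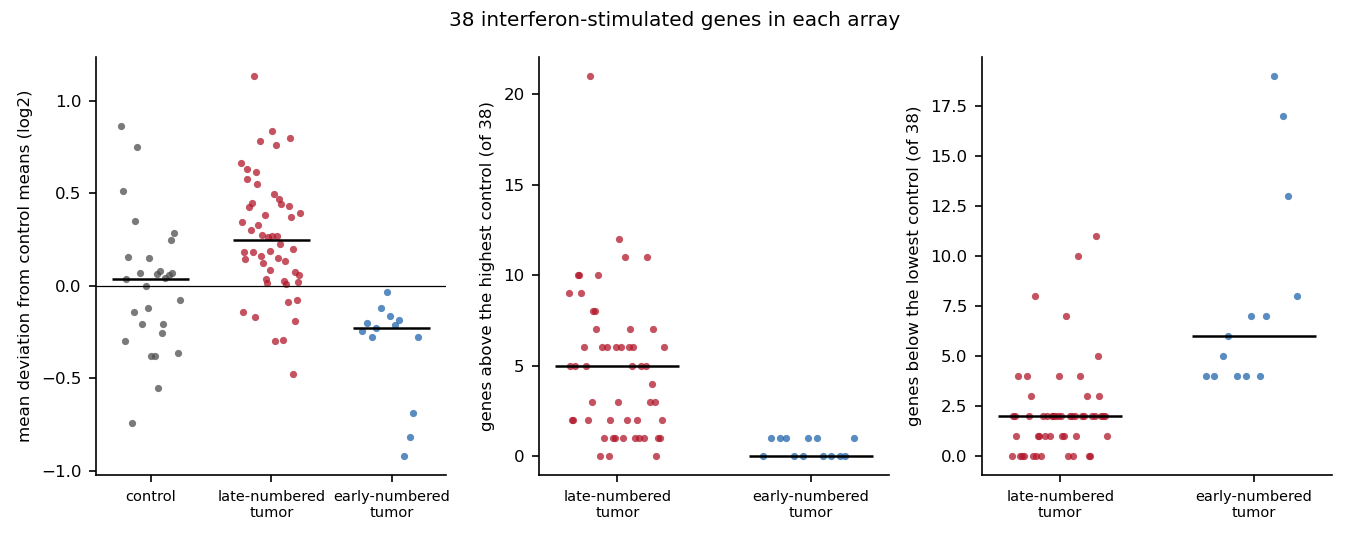
The 38 genes in each array, one point per array with a line at the median of the set. Left, the mean deviation from the control means on the log2 scale; middle and right, the number of the 38 genes above the highest and below the lowest control. Late-numbered arrays centre on 0.25 with training 29 at 1.13, and all 13 early-numbered arrays lie below 0.

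In early-numbered tumor arrays the mean deviation was -0.34 ± 0.28 (SD, n = 13), and all 13 arrays lay below 0. They ran from -0.92 to -0.03. A group of 3 arrays stood lower than the others, validation 2 at -0.92, validation 7 at -0.82 and training 4 at -0.69, while the next stood at -0.28. The same 3 had the highest 18S readings of the set (11.63, 11.73 and 11.63, beside a set median of 10.83). The part of this reading in their low level was not tested. These 3 arrays had 19, 17 and 13 of the 38 genes below the lowest control, or 50.0%, 44.7% and 34.2%, beside 31.2%, 21.3% and 23.4% of all genes in the same arrays. Every early-numbered array had at least 4, but the median share was 15.8% of the 38 genes beside 15.9% of all genes, and the share of the 38 was the greater in 7 of 13 arrays. Control arrays training 11 and training 2 held the lowest control value for 17 and 7 of the 38 genes, so these shares rest on few controls. By the limma comparison, 17 of the 38 genes were lower in early-numbered arrays, beside 29% of all genes. No early-numbered array had more than 1 of the 38 genes above the highest control, whereas between 12.2% and 22.5% of all genes lay above it in these arrays.

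**Figure D4:**
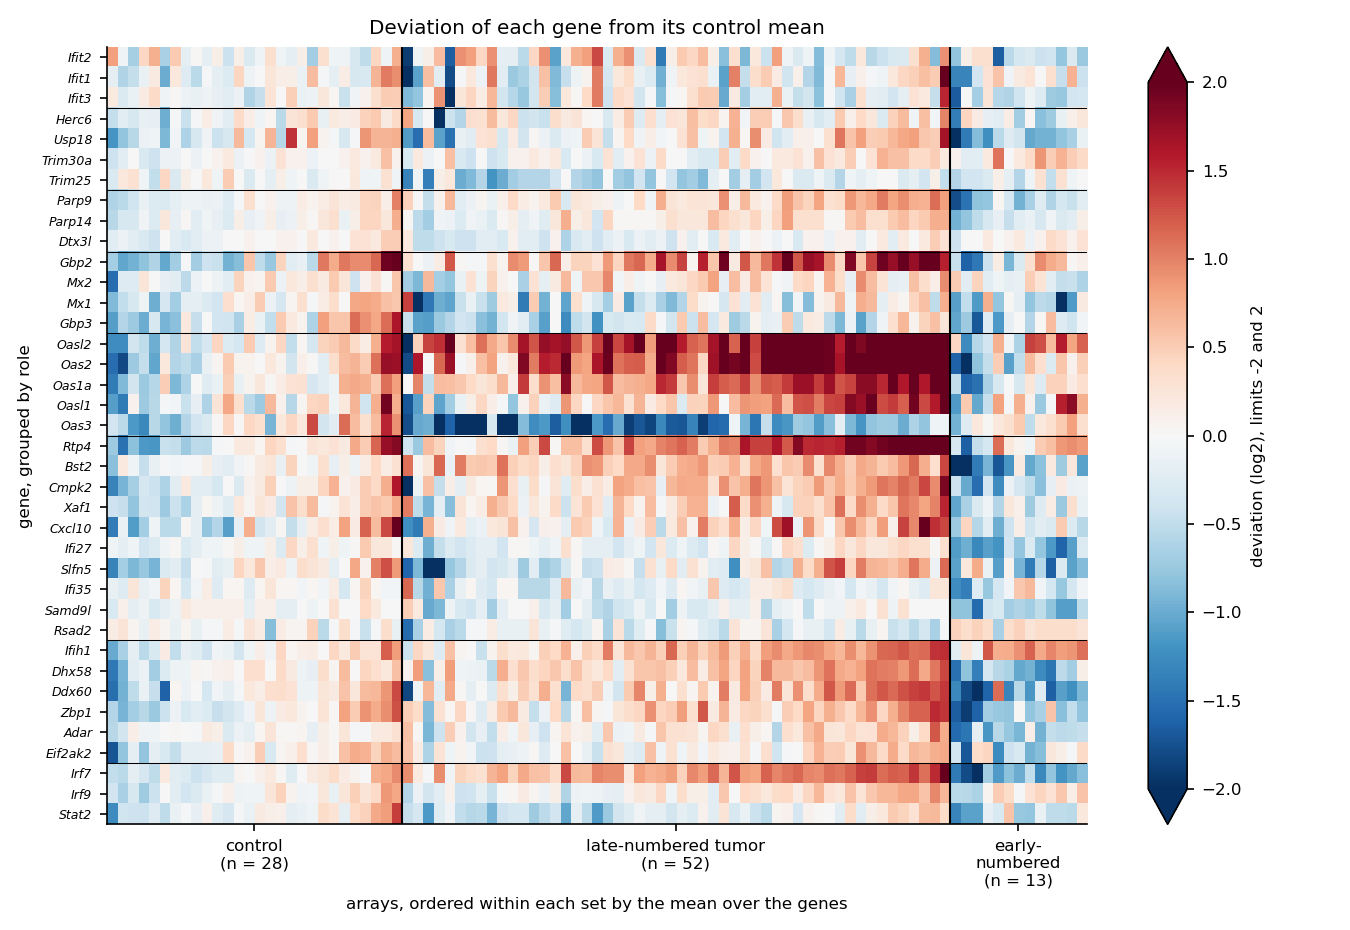
Deviation of each gene (rows, grouped by role) from its control mean in each array (columns, ordered within each set by their mean over the genes), on the log2 scale with colors limited to -2 and 2. The oligoadenylate synthetases other than Oas3, Rtp4, Gbp2 and Irf7 are raised across the right part of the late-numbered block, and Oas3 is lowered most in the left and middle part of that block.

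The genes also varied together within each set. Over the 28 control arrays the median gene had a Pearson r of 0.80 with the mean of the others (Spearman 0.75), and 32 of 38 had an r over 0.50. Over the 52 late-numbered arrays the median was 0.62 (Spearman 0.60) and over the 13 early-numbered arrays 0.56 (Spearman 0.45). Without the 2 arrays farthest from the median of the mean deviation these values were 0.76, 0.63 and 0.33, so the early-numbered value rested in part on those 2 arrays. All other genes had a median r of 0.04, -0.01 and 0.10 with the mean of the 38 in the same sets. The points share array-wide scaling, and no test was made. The highest r in control arrays were those of Rtp4 (0.94), Zbp1 (0.92), Oas2 (0.91) and Stat2 (0.91). Rsad2 (-0.12), Ifit2 (-0.06), Trim25 (0.05) and Ifi35 (0.10) stood near 0. Bst2, the gene most often above the control range, had an r of 0.25 in late-numbered arrays.

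**Figure D5:**
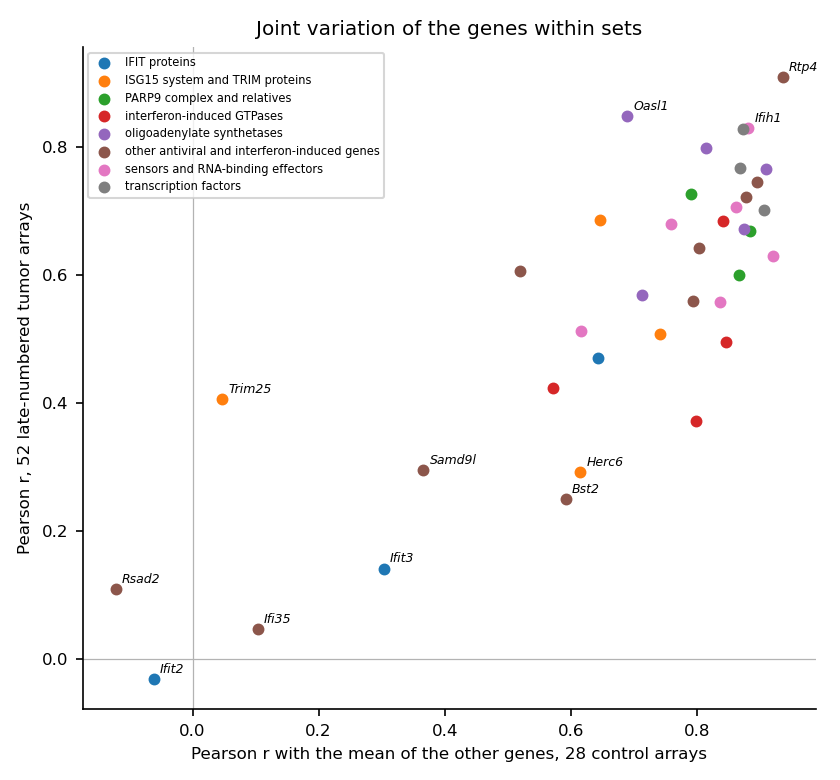
Pearson r of each gene with the mean of the other genes over the 28 control arrays (x axis) and over the 52 late-numbered tumor arrays (y axis), colored by role. Most genes lie at the upper right, Rsad2, Ifit2 and Ifi35 lie near 0 on both axes, and Trim25 lies near 0 in control arrays only.

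Outside the 38, the genes whose levels followed their mean most closely over the 28 control arrays were Parp12 (Pearson r = 0.92), Irgm1 (0.89), Ifi204 (0.89), Fcgr1 (0.87), Gbp2b (0.86), Calhm6 (0.86), Batf2 (0.85), Ifi207 (0.85), Casp12 (0.84) and Sdc3 (0.84). Over the 52 late-numbered arrays they were Ly6i (0.78), Ifi27l2a (0.77), Parp12 (0.74), Irgm2 (0.74), Irgm1 (0.71), Cfb (0.71), Batf2 (0.69), Agrn (0.68), Ddx58 (0.67) and Nectin4 (0.67). These were the highest of all genes measured and were read off without a test.

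The genes upstream of the response were read beside it. The counts for this and the following lists stand beside 25.6% of all genes called higher and 20.5% lower in late-numbered arrays, and 34.3% and 29% in early-numbered arrays. Of 10 interferon ligand genes measured, none was higher and 1 was lower in late-numbered arrays (Ifnz, -0.41 ± 0.13, adjusted p = 0.0055), while 7 were higher in early-numbered arrays. Most ligand probe sets had means below the median of all probe sets (4.79), where small differences are hard to read. Ifna4 differed by 0.11 ± 0.06 and 0.56 ± 0.08 (adjusted p = 0.119 and 9.24e-09), Ifna5 by 0.16 ± 0.10 and -0.10 ± 0.14 (0.188 and 0.549), and Ifna9 by 0.10 ± 0.07 and 0.22 ± 0.10 (0.24 and 0.0496). The receptors moved more. Of 9 receptor and kinase genes measured, 7 were higher and 1 lower in late-numbered arrays, and 3 were higher and 3 lower in early-numbered ones. Ifngr2 differed by 1.38 ± 0.12 in late-numbered arrays, Ifngr1 by 0.86 ± 0.10, Ifnar2 by 0.86 ± 0.07 and Ifnar1 by 0.61 ± 0.07 (adjusted p = 2.10e-17, 6.55e-13, 7.55e-20 and 1.00e-13). The early-numbered differences were 0.50 ± 0.18, 0.13 ± 0.14, 0.25 ± 0.10 and -0.12 ± 0.09 (adjusted p = 0.0101, 0.414, 0.0201 and 0.264).

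In the nucleic acid sensing pathway 8 of 17 genes were higher and 3 lower in late-numbered arrays, and 2 were higher and 11 lower in early-numbered arrays. Unc93b1, which escorts endosomal Toll-like receptors, differed by 1.13 ± 0.11 and -0.91 ± 0.15 (adjusted p = 7.83e-16 and 4.09e-07). The adaptor genes Myd88 (1.15 ± 0.12, adjusted p = 2.10e-13) and Ticam1 (0.70 ± 0.08, adjusted p = 1.64e-12) were higher in late-numbered arrays, and the kinase Tbk1 was lower (-0.63 ± 0.06, adjusted p = 7.62e-15). Of 34 further type I interferon-induced genes 14 were higher and 7 lower in late-numbered arrays, and 3 were higher and 17 lower in early-numbered ones. The examples with the smallest p in late-numbered arrays were Znfx1 (1.03 ± 0.07, adjusted p = 1.12e-23), Trim21 (-0.96 ± 0.08, adjusted p = 2.62e-19), Lgals9 (0.86 ± 0.08, adjusted p = 1.76e-15) and Mov10 (1.30 ± 0.13, adjusted p = 9.36e-15).

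Of 20 interferon-gamma-induced genes 7 were higher and 2 lower in late-numbered arrays, and 3 were higher and 12 lower in early-numbered ones. Tap2, a peptide transporter subunit, differed by 0.53 ± 0.08 and the immunity GTPase Igtp by 0.36 ± 0.08 in late-numbered arrays (adjusted p = 4.96e-08 and 1.33e-04), Gbp6 by -0.91 ± 0.14 and Socs3 by 0.38 ± 0.11 (adjusted p = 8.06e-08 and 0.00288). Of 11 negative regulators 4 were higher and 2 lower in late-numbered arrays. Beside 25.6% and 20.5% of all genes, the late-numbered counts of these 2 lists do not set them apart. The phosphatase gene Ptpn6 (SHP-1) was higher in late-numbered (0.48 ± 0.07, adjusted p = 4.45e-08) and lower in early-numbered arrays (-1.05 ± 0.11, adjusted p = 2.34e-14), while Ptpn11 (SHP-2) was lower in late-numbered arrays (-0.46 ± 0.07, adjusted p = 1.49e-08). Pias4 and Nlrx1 differed by 0.59 ± 0.07 and 0.84 ± 0.14 in late-numbered arrays (adjusted p = 3.33e-12 and 3.17e-07). No list was tested as a list.

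With all 65 tumor arrays taken as 1 group, the comparison for which the study was designed, 8 of the 38 genes were higher than in control and 5 lower, beside 22.7% and 19.6% of all genes, with a median difference of 0.10 against 0.07 for all genes. Those higher were Oasl2 (1.40 ± 0.21 (adjusted p = 3.24e-08)), Oas2 (1.25 ± 0.25 (adjusted p = 2.87e-05)), Rtp4 (0.88 ± 0.19 (adjusted p = 6.32e-05)), Oas1a (0.81 ± 0.17 (adjusted p = 5.72e-05)), Gbp2 (0.73 ± 0.20 (adjusted p = 0.0017)), Ifih1 (0.62 ± 0.10 (adjusted p = 3.13e-07)), Oasl1 (0.50 ± 0.18 (adjusted p = 0.017)) and Irf7 (0.47 ± 0.17 (adjusted p = 0.0224)). Oas3, Trim25, Gbp3, Samd9l and Stat2 were lower. Dhx58 and Bst2, which differed from control in both tumor sets, were not called in the pooled comparison (0.25 ± 0.14 (adjusted p = 0.148) and 0.31 ± 0.15 (adjusted p = 0.0812)).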

How the data were processed

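Total white blood cell RNA was hybridized to Affymetrix mouse genome arrays. The authors deposited 1 table of log2 values for 93 arrays, made with RMA (per the labels, which name no version), with 45101 probe sets and values from 1.23 to 14.9. The study's methods describe a further standardization on Affymetrix control probe sets by principal components; the spike-in probe sets still differ between sets in the table used here. The labels describe RNA isolated at once or after freezing and more than 1 amplification kit, without saying which array had which. Values from 10 upward are written with 1 decimal. No identical arrays were found (correlation of array pairs 0.829 to 0.995).

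The sets follow the labels' cohort and array number. limma 3.58.1 (R 4.3.3; lmFit and eBayes with intensity trend, cohort as covariate) was fitted to 45037 probe sets after 64 AFFX control probe sets were left out, with all 93 arrays in 3 sets, or in 2 for all tumor against control. It was two-sided with Benjamini-Hochberg adjustment over all probe sets. Differences are log2 ± SE. Probe sets were named by GEO's platform annotation: 34945 had a single symbol, 932 several and 9160 none. The script was tested on simulated data. The 40 genes and all lists were chosen with earlier results of these data known. Values are given in full for the 2 genes of each role group with the highest mean and for the 3 largest and 3 smallest late-numbered differences, with other genes by range; from companion lists, the 4 with the smallest p in late-numbered arrays; and the 10 genes most correlated with the mean of the 38. Alternatives changed the probe set rule, the filter on dim probe sets, the trend, array weights, centring, cohort, controls, covariates, block and arrays. Promoter sequences are from RefSeq (GRCm38.p6).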

Additional observations from a re-analysis of the deposited data

Results flagged for a closer look

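For 30 of the 38 genes the tumor minus control difference was not the same in late-numbered and early-numbered tumor arrays, by the direct limma test of one tumor set against the other at an adjusted p under 0.05. This comparison called 31.5% of all genes higher and 38.3% lower. Most genes on the array were thus called in one direction or the other, so the count of 30 by itself does not set these genes apart. By direction, 25 of the 38 were higher and 5 lower. The late-numbered arrays were higher by more than 1 log2 unit for Irf7 (1.99), Oas2 (1.97), Ddx60 (1.57), Bst2 (1.57), Dhx58 (1.39), Oas1a (1.37), Oasl2 (1.27), Zbp1 (1.22), Gbp2 (1.11) and Parp9 (1.01). They were higher by less for Usp18 (0.98), Cmpk2 (0.98), Ifi27 (0.90), Rtp4 (0.89), Adar (0.89), Xaf1 (0.66), Cxcl10 (0.63), Samd9l (0.59), Slfn5 (0.55), Parp14 (0.52), Eif2ak2 (0.50), Mx1 (0.42), Ifit2 (0.42), Ifit3 (0.38) and Herc6 (0.36). They were lower for Dtx3l (-0.20), Trim30a (-0.24), Trim25 (-0.25), Rsad2 (-0.52) and Oas3 (-1.40). The tumor sets also differ in the dap spike-in (8.56 against 2.70 in the mean) and in the actin reading (-0.54 against -1.42), and their part in these differences was not tested beyond the covariate fits below.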

How the results depend on the processing

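Of 738 values recomputed for the 18 genes given in full, 80 lost and 20 gained a call in the same direction. A further 18 reversed direction where the reported or the recomputed value was called. The other 620 kept their side of the threshold, and they include changes of direction where neither value was called. Ifit2, which was not called in late-numbered arrays, kept its direction there in 6 of 12 settings. The causes were not tested. Alternatives not named for a comparison left its counts of higher and lower genes within 1.5 times those reported, but a like count was not always of the same genes. In late-numbered arrays 5 genes were higher when 3 principal components of the control probes entered as covariates, 4 of them among the 16 reported, and 7 with leukocyte levels, 6 of them among the 16. With the principal components 3 genes were lower, none of them among the 4 reported. Of those 4, 2 kept the call and no other gene was lower with the mean of all probe sets of a gene, with the training arrays alone, with separate controls and with array number as a replicate block, and with leukocyte levels 8 were lower, 3 of them among the 4. In early-numbered arrays 1 of the 3 higher genes kept the call with the actin covariate, and 9 of the 17 lower genes with the training arrays alone and 9 with leukocyte levels, with no gene added. Between the tumor sets 15 of the 25 higher genes kept the call with the training arrays alone, 11 with the principal components and 13 with leukocyte levels, with no gene added, and with the actin covariate 16 were higher, 15 of them among the 25. Of the 5 lower genes 3 kept the call with the mean of probe sets, array weights or training arrays alone, and 2 with the actin covariate or the replicate block. With leukocyte levels 8 were lower, all 5 included, and with the principal components 3 were lower, none of them among the 5. For all tumor arrays 13 genes were higher with the mean of probe sets and 20 with array weights, both including the 8 reported. Of the 8, 4 kept the call with the validation arrays alone and 1 with leukocyte levels, and of the 4 genes higher with the principal components or the replicate block 2 and 3 were among the 8. Of the 5 lower genes 3 kept the call with the mean of probe sets, the validation arrays alone or without 3 early-numbered arrays, and 2 with the training arrays alone. Of the 8 genes lower with the principal components 1 was among the 5 reported (Samd9l), and of the 8 with the replicate block 4 were. Separate controls gave no value for all tumor arrays or between the tumor sets, since those comparisons need both sets.

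Directions reversed for these values, counting only those called as reported or as recomputed. With leukocyte levels, Irf9 became -0.23 (late-numbered minus control) and -0.40 (between the tumor sets), Trim30a -0.23 (late-numbered minus control) and Gbp3 -0.52 (between the sets). With the mean of probe sets, Trim30a became 0.10 and Trim25 0.45 between the sets, and Trim25 0.054, Rsad2 0.045 and Parp14 -0.15 in late-numbered minus control. With the actin covariate, Trim25 became 0.17 between the sets. With the principal components, which hold the spike-in probe sets that separate late-numbered arrays, Ifit2 became -2.53 and Samd9l 0.49 (late-numbered minus control), Rsad2 -0.11 (early-numbered minus control), and Oasl2 -0.42, Ifit2 -2.17, Ifit3 -1.67, Trim30a 0.08 and Dtx3l 0.43 between the sets.

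Leaving out each of the 93 arrays in turn gave 15 to 17 higher and 4 to 7 lower genes in late-numbered arrays, with 7 reached without control training 11. It gave 3 higher and 16 to 19 lower genes in early-numbered arrays, 22 to 26 higher and 3 to 5 lower genes between the sets, with 3 reached without early-numbered validation 1 or validation 6, and 8 to 10 higher and 3 to 7 lower genes for all tumor arrays, with 3 reached without control training 1, control training 14 or control validation 2. Control and tumor arrays of the same cohort and number were not paired: over 28 such pairs the correlation of deviations ran from -0.47 to 0.24 (median -0.01), 11 exceeded 0.1, and no control correlated best with its own number. With array number as a replicate block 12 genes were higher in late-numbered arrays and 3 higher and 19 lower in early-numbered arrays. Only tumor arrays that share cohort and number with a control array add to that fit. A call lost with the replicate block, here or above, therefore cannot tell the blocking from the loss of the other late-numbered arrays. The alternatives without 3 late-numbered or 3 early-numbered arrays were chosen after seeing the data. Precision is limited by the 13 early-numbered arrays, and array signals give no counting depth.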
